A study of Mus musculus with 18 samples.

Results

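The cells described here are the 575 cells of an adult mouse muscle library that the submitters' single-cell analysis divided into cluster 1 and cluster 2. The members were taken from the deposited table of cluster means, of which only the 2 columns of mean UMI counts were used (a UMI, or unique molecular identifier, tags 1 captured RNA molecule). Cluster 1 held 509 cells and cluster 2 held 66 cells, or 11.5% of the 575 (exact binomial 95% interval 8.99% to 14.4%). The adult cells were 575 of the 3506 single cells considered, the other 2931 being cultured iPax3 cells. Of 14499 genes listed, 6376 had a mean of at least 0.1 UMI per cell in 1 cluster or the other, and the ratio between the clusters was computed for those.

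The study set myogenic progenitors made from pluripotent stem cells beside myogenic progenitors isolated from tissue. The adult library is 1 droplet library (10x Chromium, reads at the 3′ end of transcripts) of cells labelled mouse myogenic progenitors, from Tibialis anterior muscle of 3 months old mice of the Pax7-ZsGreen strain. In this strain a green fluorescent protein reports activity of the Pax7 gene. The number of animals and the sort gates behind the library are not given in the sources used here. The iPax3 single cells came from embryoid bodies, were sorted as Vcam1+Flk1- and were expanded with Dox and bFGF for 3 passages. Bulk RNA sequencing of 2 tissue groups was used for genes that differ between the clusters: Neo (Pax7-ZsGreen, hindlimb muscles, postnatal day 3) and Fet (My5Cre Rosa26YFP, fetuses at E14.5), with 3 libraries each.

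Satellite cells are the resident stem cells of skeletal muscle. They lie between the muscle fibre and its basement membrane, depend on the transcription factor Pax7, and switch on Myod1 when they activate. Capillary endothelial cells lie close to them; they carry the adhesion proteins PECAM1 and VE-cadherin and take up fatty acids for the fibre. Interferons, released in antiviral defence, act through STAT and IRF transcription factors on promoters that hold an interferon-stimulated response element. Droplet libraries also hold free RNA, released from broken cells, which enters every droplet and so gives a low level of abundant genes in cells that do not make them.

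Cluster 1 carried 7371507 UMIs, with a median of 11927 UMIs and 2281 genes per cell. Cluster 2 carried 525452 UMIs, with a median of 7577.5 UMIs and 1855 genes per cell, so its values are the less precise. Mitochondrial transcripts made up a median of 3.78% of a cell's UMIs in cluster 1 and 3.44% in cluster 2. The bulk libraries held 516504 to 32017618 assigned reads, and the shallowest was Fet replicate 1. Because the clusters were made from the same genes, differences between them are descriptions without a p-value. Intervals are exact 95% intervals for counting error only. Cluster means are scaled by the authors to cells of equal depth, so that both columns sum to 10854 UMIs. The level of free RNA was taken from 85157 barcodes with under 100 UMIs each, 490893 UMIs in sum, and is called the low-UMI level below. With 1 library, no value here has a replicate check.

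The 2 clusters had nearly the same most abundant genes. Malat1, a nuclear non-coding RNA, had a mean of 346 UMIs per cell in cluster 1 and 382 in cluster 2. Gpx3, a secreted glutathione peroxidase that is abundant in satellite cells, followed at 126 and 116. Ubb (a ubiquitin gene) stood at 106 and 111, Fth1 (ferritin heavy chain) at 85.6 and 83.5, and the chaperone Hsp90ab1 at 79.0 and 81.4. Tmsb4x, which encodes the actin-binding peptide thymosin beta 4, stood at 70.9 and 94.5, the largest ratio of these. Over the 2006 genes with a mean of at least 0.5 in either cluster, the log2 levels of the clusters correlated with a Pearson r of 0.964. This is a correlation across genes of 1 library, and the genes share depth and base composition. The low-UMI barcodes correlated with cluster 1 at r = 0.987 and with cluster 2 at r = 0.955. The iPax3 cells, in contrast, correlated with the clusters at 0.583 and 0.524.

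More genes passed a fold threshold toward cluster 2 than toward cluster 1. At a 2-fold threshold, 788 genes (12.4% of 6376) had the higher mean in cluster 2 and 181 (2.84%) in cluster 1. At 4-fold the counts were 134 (2.10%) and 22 (0.345%). Among the 2006 genes with a mean of at least 0.5, 116 (5.78%) were 2-fold higher in cluster 2 and 3 (0.150%) in cluster 1. Of the 788 genes, 542 had a counting interval above 1 and 118 one above 2. All 116 of the better-covered cluster 2 genes had an interval above 1, and 49 had one above 2. Of the 181 cluster 1 genes, 46 had an interval above 1 and 0 had one above 2. All these genes were picked by the same ratio, so the counts of intervals above 1 are partly set by that choice. For the 116 genes, with at least 25 UMIs each in cluster 2, that count was fixed in advance. The intervals are therefore no independent support. The median gene among the 788 rested on 9 UMIs in cluster 2, and 484 stayed 2-fold higher without their cell of most UMIs. Scaled to equal sums without mitochondrial and ribosomal protein genes, 539 genes were 2-fold higher in cluster 2 and 232 in cluster 1. A mean of at least 0.1 was reached by 6003 genes in cluster 2 and 5319 in cluster 1, so more genes entered through cluster 2. The median gene among the 181 rested on 2 UMIs in cluster 2. At the threshold of the rule a mean of 0.1 equals 68 UMIs in cluster 1 and 5 in cluster 2. The genes just inside that threshold were 9130008F23Rik (0.10 and 0.0826) and Cluap1 (0.10 and 0.0620). The genes just outside were 5031439G07Rik and Birc2, with 0.0987 and 0.0620 each.

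**Figure D1:**
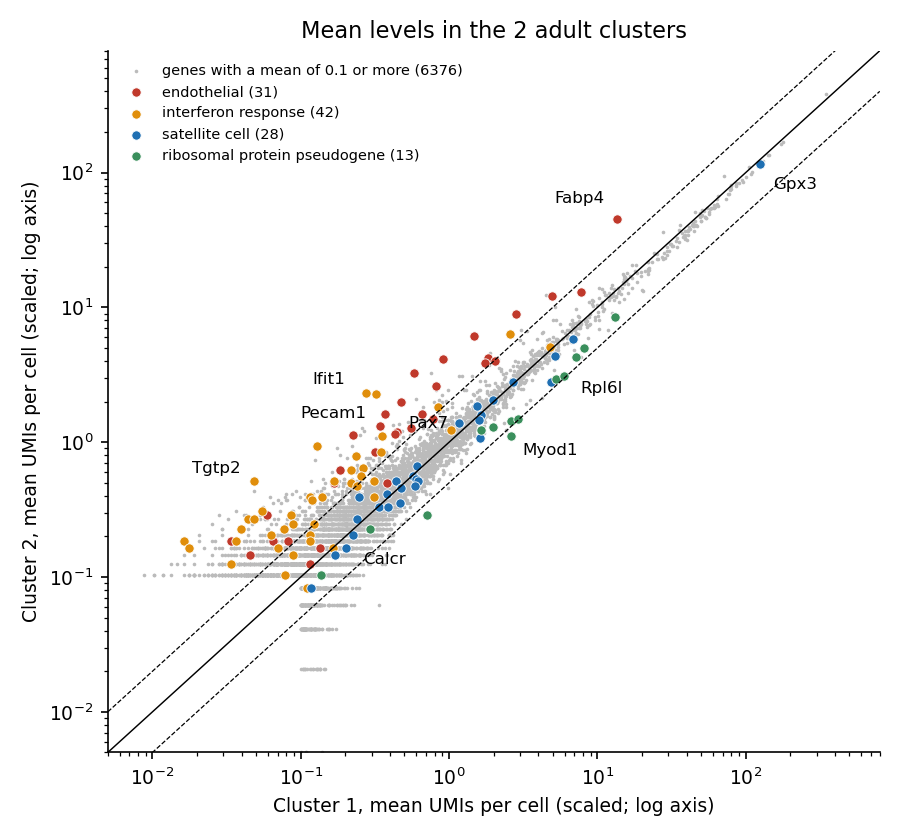
Mean UMIs per cell in cluster 1 (x axis, log scale) against cluster 2 (y axis, log scale) for 6376 genes with a mean of at least 0.1 in either cluster; the solid line marks equality and the dashed lines a 2-fold difference. Endothelial (31) and interferon response (42) genes lie mostly above the upper dashed line, the 28 satellite cell genes lie between the dashed lines, and the 13 ribosomal protein pseudogenes lie below equality.

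The markers of satellite cells did not separate the clusters. Pax7 (chr4:139737062-139833528 in mm10), the defining transcription factor, had a mean of 1.60 UMIs per cell in cluster 1 and 1.47 in cluster 2, from 1086 and 71 UMIs. The ratio of cluster 2 to cluster 1 was 0.917, with an interval of 0.711 to 1.17 that spans equality. Calcr, the calcitonin receptor that helps to keep adult satellite cells quiescent, had means of 0.203 and 0.165 (138 and 8 UMIs; 0.813, interval 0.344 to 1.65). Its 8 UMIs in cluster 2 leave a wide range. Myf5, the first myogenic regulatory factor to be expressed in development, stood at 0.476 and 0.454, and the intermediate filament gene Des at 5.16 and 4.36. Sdc4, a heparan sulfate proteoglycan of the satellite cell surface, stood at 6.88 and 5.80. The adhesion receptor gene Vcam1 had means of 1.65 and 1.59. Of 28 satellite cell genes with a mean of at least 0.1, 0 were 2-fold apart in either direction, and their median ratio of cluster 2 to cluster 1 was 0.924, beside 1.11 over all 6376 genes. Asb5, a gene of a ubiquitin ligase adaptor, lay farthest toward cluster 1 among those of high mean, at 4.85 against 2.79 (ratio of cluster 1 to cluster 2 1.74, interval 1.46 to 2.08).

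Satellite cell markers were also present at nearly these levels in the low-UMI barcodes. Per 10000 UMIs, Pax7 stood at 1.47 in cluster 1, 1.35 in cluster 2 and 1.79 in the low-UMI barcodes. The whole satellite cell list summed to 149, 136 and 150 per 10000 UMIs. Of its 28 genes, 0 reached 2 times the low-UMI level in either cluster, and the highest ratio of cluster 1 to the low-UMI level was 1.93 (Sox8). By level alone, RNA made in these cells and free RNA from the same library therefore cannot be told apart for these markers. The library itself is rich in them: Gpx3 stood at 116 per 10000 UMIs in cluster 1 and at 0.795 in the iPax3 cells, Asb5 at 4.47 and 0.00288, and Pax7 had 2 UMIs among all 41625326 of the iPax3 cells.

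Myod1 stood lower in cluster 2. It encodes the transcription factor of myogenic activation, and its mean was 2.42 UMIs per cell in cluster 1 and 1.24 in cluster 2, from 1643 and 60 UMIs. The ratio of cluster 1 to cluster 2 was 1.95, with an interval of 1.51 to 2.57. Myod1 was uneven among cells, with a variance 5.59 times that of Poisson sampling at the cells' depths, where the median over 2763 genes was 1.07. The activated myoblast list as a whole showed less. Of 11 genes with a mean of at least 0.1, 1 was 2-fold higher in cluster 2 and 0 in cluster 1, and the list summed to 6.40 and 5.21 per 10000 UMIs, beside 5.99 in the low-UMI barcodes. In 42 of 509 cluster 1 cells (8.25%, interval 6.01% to 11%) and 1 of 66 cluster 2 cells (1.52%, 0.0384% to 8.16%) the list summed to over 2 times the low-UMI level, a threshold chosen after the values were seen.

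**Figure D2:**
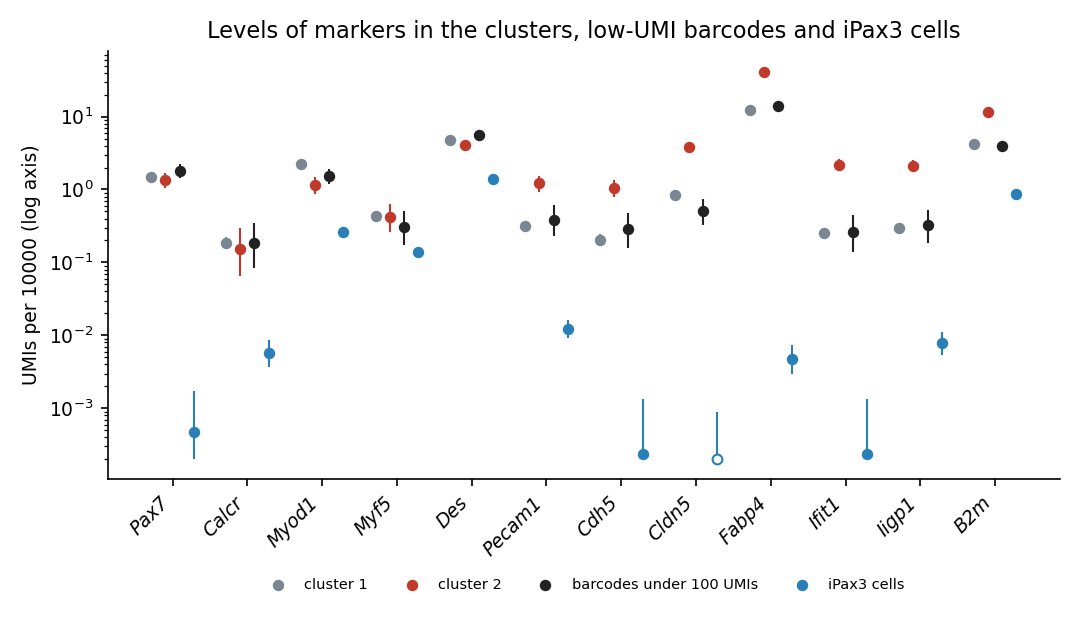
UMIs per 10000 (y axis, log scale) of 12 genes in cluster 1, cluster 2, the low-UMI barcodes and the iPax3 cells, with exact 95% counting intervals; an open symbol marks 0 UMIs. Pax7, Calcr, Myf5 and Des lie at similar heights in both clusters and the low-UMI barcodes, whereas Pecam1, Cdh5, Cldn5, Fabp4, Ifit1, Iigp1 and B2m stand highest in cluster 2.

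Endothelial genes set cluster 2 apart. All 31 genes of the endothelial list had a higher mean in cluster 2, and 25 of 31 were at least 2-fold higher, beside 12.4% of all genes. The median ratio was 2.87. Pecam1 (chr11:106654217-106750628 in mm10), the platelet endothelial cell adhesion molecule, had a mean of 0.342 UMIs per cell in cluster 1 and 1.32 in cluster 2, from 232 and 64 UMIs (3.87-fold, interval 2.89 to 5.12). It was seen in 31.4% of cluster 1 cells and 51.5% of cluster 2 cells at their own depths (medians 11927 and 7577.5 UMIs). After each cell was thinned to 3463 UMIs, the depth of the shallowest, those shares were 12.2% (9.47% to 15.3%) and 34.8% (23.5% to 47.6%). In cluster 1 its level of 0.315 per 10000 UMIs (0.276 to 0.358) was not above the 0.387 (0.233 to 0.604) of the low-UMI barcodes. How much of its share of cells in cluster 1 came from free RNA was not tested. The ratio depended on the clusters. It was 5.19 with k-means clusters rebuilt from the cells the authors clustered, and 1.58 with those rebuilt from barcodes of at least 500 UMIs, whose median depths were 12160 and 2875 UMIs.

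Genes of endothelial junctions were in the same order as Pecam1. Cdh5, which encodes VE-cadherin, had means of 0.224 and 1.14 (152 and 55 UMIs; 5.08-fold, interval 3.66 to 6.95). Cldn5, the claudin of endothelial tight junctions, had means of 0.913 and 4.11 (620 and 199 UMIs; 4.50-fold, 3.82 to 5.29). Esam, an endothelial adhesion molecule, followed at 0.816 and 2.62 (3.22-fold), and Icam2 at 0.434 and 1.16 (2.66-fold). The largest difference of a well-covered endothelial gene was that of Rgcc, a regulator of the cell cycle and of complement response, at 0.576 and 3.26 (391 and 158 UMIs; 5.67-fold, interval 4.68 to 6.84). Tm4sf1, a membrane protein of endothelial cells, stood at 1.48 and 6.16 (1004 and 298 UMIs; 4.16-fold, 3.65 to 4.74). The water channel gene Aqp1 stood at 2.83 and 8.92 (3.15-fold, 2.83 to 3.50). Ly6c1 and Ly6a, surface antigens that other cells of muscle carry too, differed less, at 2.48-fold and 1.69-fold. Vwf (1.08-fold, 0.384 to 2.46) and Sox7 (1.23-fold, 0.517 to 2.53) had intervals that span equality, on means of 0.124 and 0.165 in cluster 2.

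Receptors for vascular growth factors were among the members. Flt1, the VEGF receptor 1, had means of 0.370 and 1.61 (251 and 78 UMIs; 4.36-fold, interval 3.34 to 5.64). Kdr, the VEGF receptor 2, had 0.317 and 0.847 (2.68-fold, 1.87 to 3.75), and the co-receptor gene Nrp1 had 0.252 and 1.14 (4.51-fold, 3.27 to 6.15). Eng, a co-receptor of the TGF-beta family that works with the receptor kinase Acvrl1, stood at 0.554 and 1.28, and Acvrl1 itself at 0.253 and 0.599 (2.37-fold). In the list of growth factor receptors, 10 of 25 genes were 2-fold higher in cluster 2 and 0 in cluster 1, beside 12.4% and 2.84% of all genes. The median ratio of the list was 1.71. It shares Flt1, Kdr, Tek, Tie1 and Eng with the endothelial list, so its count partly repeats that list. Receptors known from other muscle cells lay near equality: Fgfr1 at 2.32 and 1.96, Fgfr4 at 0.334 and 0.331, and Pdgfrb, a receptor of pericytes, at 0.187 and 0.186.

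Several genes of fatty acid uptake were also higher in cluster 2. Fabp4, a fatty acid binding protein of capillary endothelium and fat cells, was the most abundant of the endothelial list, with a mean of 13.5 in cluster 1 and 44.9 in cluster 2 (9169 and 2176 UMIs; 3.33-fold, interval 3.18 to 3.49). Cd36, a fatty acid transporter, stood at 0.476 and 1.98 (4.17-fold, 3.28 to 5.25). Gpihbp1, which anchors lipoprotein lipase in capillaries, stood at 2.03 and 4.03 (1.98-fold), and Lpl, the lipase itself, at 0.780 and 1.49 (1.91-fold). Meox2, a transcription factor of muscle capillaries, had lower means of 0.115 and 0.269 (2.34-fold, 1.19 to 4.24). The genes of fatty acid oxidation in the same list did not share this order: Hadha stood at 0.406 and 0.351 and Acadm at 0.247 and 0.227. In sum 4 of 14 genes of the list were 2-fold higher in cluster 2 (Fabp4, Cd36, Meox2 and Fabp3), beside 12.4% of all genes.

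The low-UMI level gave a common reference for both clusters. Of 6003 genes with a mean of at least 0.1 in cluster 2, 732 (12.2%) stood at 2 times that level or more, and of 1917 with a mean of at least 0.5, 124 (6.47%) did. In cluster 1 these counts were 118 of 5319 (2.22%) and 4 of 1751 (0.228%). Of the 31 endothelial genes, 22 stood at 2 times the low-UMI level or more in cluster 2, with Cldn5 highest at 7.44 times, and 0 in cluster 1, where Cldn5 was again highest at 1.65 times. The list summed to 40.8 per 10000 UMIs in cluster 1, 114 in cluster 2 and 43.2 in the low-UMI barcodes. Markers of vessel subtypes were sparse. Among 5 arterial genes with a mean of at least 0.1, 2 were 2-fold higher in cluster 2, beside 12.4% of all genes. The Notch ligand gene Dll4 (0.0883 and 0.269) was among the 2. Among 10 venous and lymphatic genes 3 were 2-fold higher. One of these was Selp, the P-selectin gene of veins (0.265 and 1.22, 4.60-fold), of whose cluster 2 UMIs 52.5% came from 1 cell. Without the cell of most UMIs its ratio was 2.24.

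Interferon response genes held several of the largest ratios. Of 42 such genes with a mean of at least 0.1, 31 were at least 2-fold higher in cluster 2, beside 12.4% of all genes. Their median ratio was 2.82. This list was compiled after the values of these clusters had been seen. Tgtp2, a T-cell-specific GTPase of the interferon-inducible family, had means of 0.0486 and 0.516 (33 and 25 UMIs; 10.6-fold, interval 6.06 to 18.4). Ifit1, which binds viral RNA, had means of 0.277 and 2.33 (188 and 113 UMIs; 8.43-fold, 6.62 to 10.7). Part of the Ifit1 difference came from 1 cell, and the ratio was 6.11 without it. With the clusters rebuilt from barcodes of at least 500 UMIs, Ifit1 was 1.54-fold and Iigp1 1.13-fold. Mndal, a nuclear protein of the interferon-inducible p200 family, stood at 0.128 and 0.930 (87 and 45 UMIs; 7.26-fold). Iigp1, an interferon-inducible GTPase that acts against intracellular pathogens, stood at 0.322 and 2.27 (219 and 110 UMIs; 7.05-fold, 5.55 to 8.90). Isg15, a ubiquitin-like modifier, was the most abundant of the list in cluster 2, at 2.56 and 6.32 (1742 and 306 UMIs; 2.46-fold, 2.18 to 2.78). Members with small differences were Ifi27 (4.77 and 5.08), Ifi35 (1.03 and 1.24) and Irf9 (0.311 and 0.392), an IRF partner of STAT proteins. Against the low-UMI level, 22 of the 42 genes stood at 2 times or more in cluster 2, with Ifit1 highest at 8.12 times, and 0 in cluster 1, with Parp14 highest at 1.75 times.

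The antigen presentation list was likewise higher in cluster 2. It holds genes of class I molecules and of peptide processing, which interferon is known to induce, and other interferon-inducible genes such as Ifitm2, Ifitm3 and Ly6e; some members, such as Isg15, Ifi27 and Bst2, are also in the interferon list. All 22 with a mean of at least 0.1 had the higher mean in cluster 2, 12 of them by at least 2-fold, beside 12.4% of all genes. Their median ratio was 2.2. B2m, the light chain of class I molecules, had means of 4.51 and 12.4 (3064 and 601 UMIs; 2.75-fold, interval 2.52 to 3.00). The heavy chain genes H2-D1 and H2-K1 stood at 5.18 and 10.1 (1.96-fold) and at 4.24 and 6.40 (1.51-fold). Reads of these heavy chain genes can be shared among near-identical copies, so the split between them is uncertain. Tap1, a subunit of the peptide transporter, stood at 0.121 and 0.413 (3.42-fold, 1.99 to 5.63), and Psmb8, a subunit of the immunoproteasome, at 0.524 and 1.4 (2.68-fold, 2.04 to 3.48). Irf1, the transcription factor that acts on many of these genes, had means of 0.789 and 1.98 (2.51-fold, 2.00 to 3.13). The antiviral membrane proteins Ifitm3 and Ifitm2 were abundant and close to equality, at 45.1 and 51.3 and at 14.8 and 17.6.

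The promoters of interferon genes that stood higher in cluster 2 are shown because they hold the interferon-stimulated response element at a short distance from the start of transcription. The sequences are RefSeq's (GRCm38.p6, the same build as mm10), 60 bases on the gene's strand, 5′ to 3′, with the element (GAAA, any 2 bases, GAAA) or its reverse complement (TTTC, any 2 bases, TTTC) in capitals. Capitals mark 1 match in each window, and the further matches in the Ifit1 and Isg15 windows are in lower case. The exception is bases that a further Isg15 match shares with the marked one. The window of Tgtp2 is chr11:49064248-49064307 (minus strand), that of Ifit1 chr19:34640779-34640838 (plus), that of Mndal chr1:173879978-173880037 (minus), that of Isg15 chr4:156200850-156200909 (minus) and that of B2m chr2:122147523-122147582 (plus).
Tgtp2: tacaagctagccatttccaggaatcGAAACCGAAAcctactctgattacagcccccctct
Ifit1: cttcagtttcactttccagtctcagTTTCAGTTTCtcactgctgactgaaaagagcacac
Mndal: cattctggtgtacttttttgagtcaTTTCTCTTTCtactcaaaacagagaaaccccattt
Isg15: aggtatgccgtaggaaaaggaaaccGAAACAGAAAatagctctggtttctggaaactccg
B2m: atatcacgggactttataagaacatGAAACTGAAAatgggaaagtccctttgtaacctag
The element ends 60 bases before the start in Tgtp2, 75 in Ifit1, 44 in Mndal, 56 in Isg15 and 129 in B2m. Ifit1 and Isg15 hold more than 1 match in the 250 bases before the start, 2 and 3.

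In windows of 300 bases, from 250 before to 50 after the start, the element was found on either strand in 952 of 27025 promoters (3.52%). It was found in 167 of the 4899 genes with a mean of at least 0.1 and a RefSeq promoter (3.41%). Of all genes 2-fold higher in cluster 2, 34 of 589 matched promoters held it (5.77%), and of those 2-fold higher in cluster 1, 6 of 136 (4.41%). Among genes 4-fold higher in cluster 2 it was 9 of 100, and among the better-covered genes 2-fold higher there 13 of 79 (16.5%). For the interferon response list this was 20 of 31 (64.5%), and for the antigen presentation list 6 of 18 (33.3%). The endothelial list held it in 1 of 16, and the satellite cell list in 1 of 20. The core of the binding motif of ETS factors, AGGAAG on either strand, was in 12 of 16 endothelial promoters (75%), beside 35.2% of all promoters. All genes 2-fold higher in cluster 2 were near that background, with 216 of 589 (36.7%), as were the better-covered ones, with 29 of 79 (36.7%), and the 4-fold set had 46 of 100. A match describes letters in these windows and is no evidence that a factor binds.

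**Figure D3:**
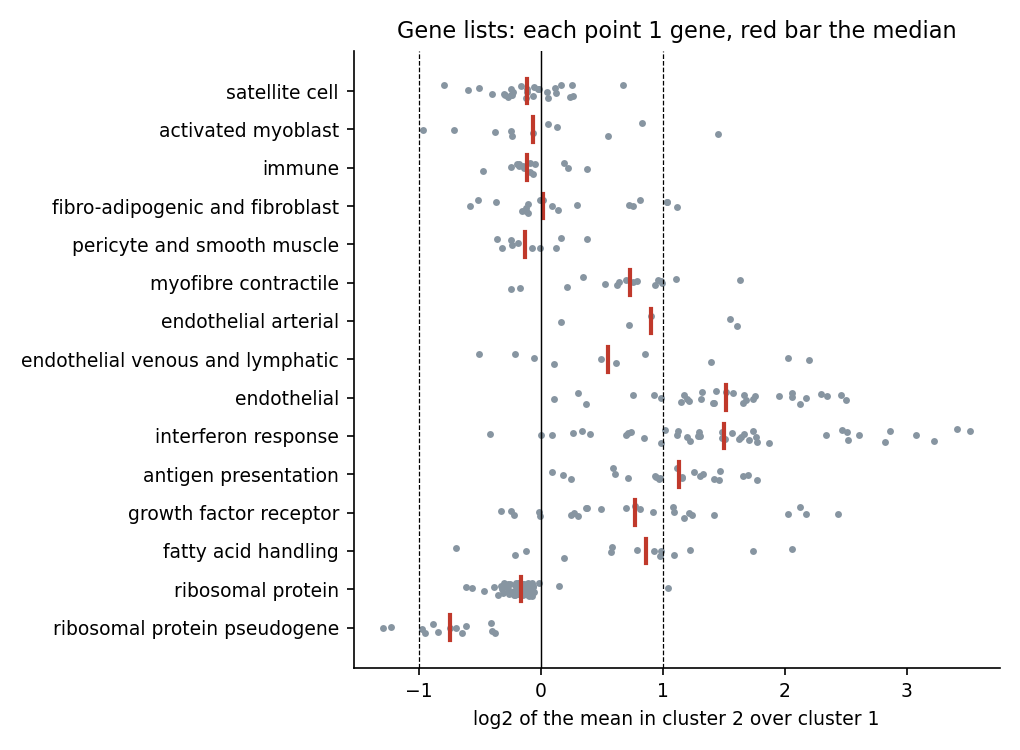
Log2 ratio of cluster 2 to cluster 1 for each gene with a mean of at least 0.1 in 15 gene lists, with the median of each list as a red bar and dashed lines at a 2-fold difference either way. The medians of the endothelial (2.87-fold) and interferon response (2.82-fold) lists lie beyond the dashed line on the cluster 2 side, that of the satellite cell list is 0.924-fold and that of the ribosomal protein pseudogenes 0.596-fold.

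Other lists lay nearer to equality. The chemokine Cxcl12, made by endothelial and stromal cells, stood at 0.814 and 2.44 (2.99-fold, interval 2.43 to 3.66), and the interferon-inducible Cxcl10 at 0.776 and 1.53 (1.97-fold, 1.52 to 2.52). Of 18 chemokine and cytokine genes, 4 were 2-fold higher in cluster 2, beside 12.4% of all genes. Hes1, a target of Notch signalling, stood at 0.651 and 1.47 (2.25-fold, 1.73 to 2.90). In the Notch list 3 of 11 genes were 2-fold higher in cluster 2, beside the same 12.4%. Immediate early genes, which respond to tissue dissociation among other stimuli, had a median ratio of 1.15, near the 1.11 over all genes. Of 27 such genes 24 were higher in cluster 2, a direction that the median of all genes shared. Fos stood at 36.0 and 40.9, and Junb at 17.2 and 20.7. The cell cycle list had a median ratio of 1.17 over 11 genes, 0 of them 2-fold apart; its tubulin gene Tubb5 was 1.73-fold higher in cluster 2 (1.37 to 2.17) and the cyclin gene Ccnd2 1.72-fold (1.19 to 2.42). The median ratio was 0.990 over 16 chaperone genes and 1.04 over 22 genes of oxidative phosphorylation, beside 1.11 over all genes.

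Markers of further cell types were present but did not follow the clusters. The immune list summed to 52.6, 47.0 and 45.1 per 10000 UMIs in cluster 1, cluster 2 and the low-UMI barcodes, and the fibroblast list to 43.8, 50.9 and 53.9. Of 14 immune genes 0, and of 19 fibroblast genes 3, were 2-fold higher in cluster 2, beside 12.4% of all genes. Of 10 pericyte and 6 tenocyte genes 0 were. Contractile genes of the muscle fibre were higher in cluster 2 with a median ratio of 1.65 over 16 genes, and a single cell carried much of it. Acta1, skeletal muscle actin, stood at 2.99 and 5.72 (1.91-fold), with 53.8% of the cluster 2 UMIs in 1 cell, and at 0.898-fold without the cell of most UMIs. Tnnc2 (troponin C of fast fibres) and Tpm1 (tropomyosin) changed from 1.94-fold to 1.03-fold and from 1.73-fold to 1.01-fold in the same way. Car3, a carbonic anhydrase of slow fibres, had 88.9% of its cluster 2 UMIs in 1 cell; its 5.94-fold ratio was 0.671-fold without that cell.

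Few genes stood clearly higher in cluster 1. Of the 3 with a mean of at least 0.5 and a 2-fold ratio, Igfbp5, which encodes a binding protein of insulin-like growth factors, had means of 0.981 and 0.454 (666 and 22 UMIs; ratio of cluster 1 to cluster 2 2.16, interval 1.41 to 3.47). The other two were Rps18-ps3 and Rpl13a-ps1, pseudogenes that share reads with the ribosomal protein genes they copy, so that their values are uncertain. Ifrd1, a regulator of muscle differentiation and regeneration, had means of 2.36 and 1.38 (1.70-fold). Gamt, an enzyme of creatine synthesis, was 1.91-fold higher in cluster 1, Luc7l3, a splicing factor, 1.8-fold, Rheb, an activator of mTOR, 1.76-fold, and the calcium-binding protein gene S100a4 1.63-fold. Beyond these, the largest ratios rested on few UMIs. All 22 genes 4-fold higher in cluster 1 had 1 to 3 UMIs in cluster 2: Sox9, for instance, a transcription factor of cartilage and progenitor cells, had 228 and 3 UMIs. Of the 4 genes without a UMI in cluster 2, Aldh1a1, an enzyme of retinoic acid synthesis, had the most in cluster 1, 95, and was at least 2.26-fold higher there, counted against a floor of 3 UMIs in cluster 2.

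A small difference ran through the genes of the ribosome. Of 81 ribosomal protein genes, 79 had the higher mean in cluster 1, with a median ratio of cluster 2 to cluster 1 of 0.895, and the list summed to 3775 per 10000 UMIs in cluster 1 and 3416 in cluster 2. All 13 mitochondrial transcripts were also higher in cluster 1 (median 0.871). For both lists the low-UMI barcodes stood closer to cluster 1 than to cluster 2, with 3703 per 10000 UMIs for ribosomal proteins.

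The cells of cluster 2 were not alike. In 42 of 66 (63.6%, interval 50.9% to 75.1%) the endothelial list summed to over 2 times the low-UMI level, as in 8 of 509 cells of cluster 1 (1.57%, 0.681% to 3.07%). The median was 124 per 10000 UMIs in cluster 2 and 37.9 in cluster 1, and 4 and 3 cells lay between 1.5 and 2 times. For the interferon list 27 of 66 cells (40.9%, 29.0% to 53.7%) and 8 of 509 (1.57%) were over 2 times, with more cells near the threshold, 10 and 20. Both lists were over it in 25 cells of cluster 2 (37.9%, 26.2% to 50.7%), the endothelial list alone in 17, the interferon list alone in 2 and neither in 22. Across the 66 cells the sums of the lists correlated with a Spearman rho of 0.51, and across the 509 cells of cluster 1 with 0.27. All points share 1 library. The interferon list was compiled after the cluster values were seen. Its high sums in cluster 2, and their overlap with the endothelial sums there, are thus partly set by that choice. The fatty acid list, which shares Fabp4, Cd36, Gpihbp1 and Lpl with the endothelial list, was over 2 times in 38 of 66 cells (57.6%), and the antigen presentation list in 14 (21.2%).

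The 42 cells with a high endothelial sum still carried satellite cell transcripts at the level of the library. Their median for the satellite cell list was 130 per 10000 UMIs, and that of the other 24 cells of cluster 2 was 141, beside 150 in the low-UMI barcodes. Those 24 cells had an endothelial median of 39.4 per 10000 UMIs, close to that of cluster 1. Among them 3 cells exceeded 2 times the low-UMI level for the fibroblast list, 2 for the immune list and 1 for the contractile list. Their median depth was 7752 UMIs, below that of cluster 1. The part of free RNA, of pairs of cells in 1 droplet and of depth in these values was not tested.

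**Figure D4:**
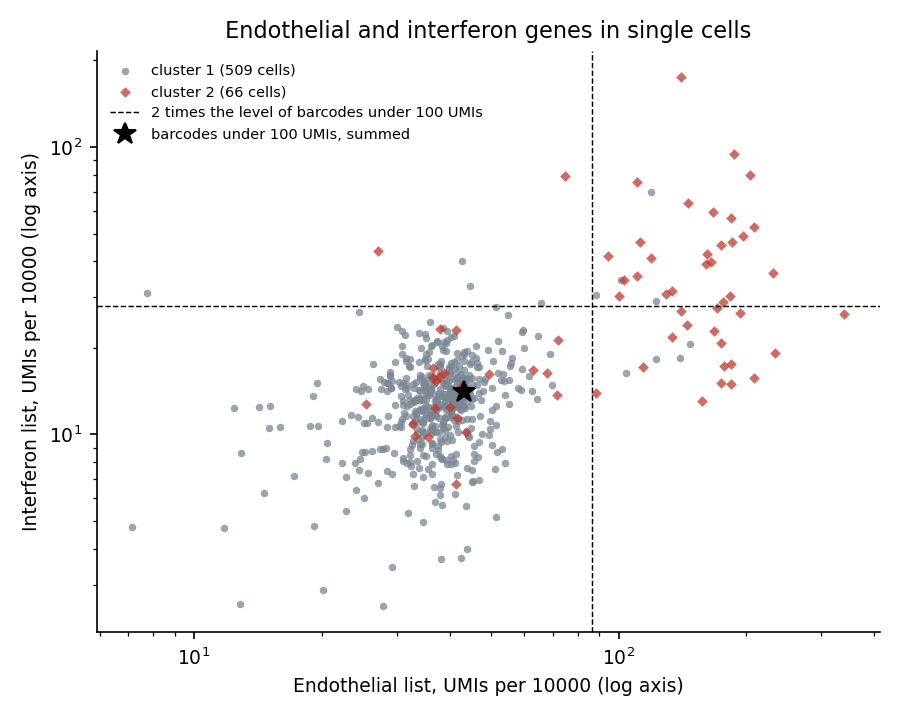
Endothelial list (x axis) against interferon response list (y axis) in UMIs per 10000 for each of 509 cells of cluster 1 and 66 of cluster 2; dashed lines mark 2 times the low-UMI level and the star the low-UMI barcodes summed. Cluster 1 gathers around the star with 497 cells below both lines, while 25 cells of cluster 2 lie above both and 17 above the endothelial line alone.

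The genes that marked cluster 2 were mostly low in the cultured iPax3 cells. Of the 116 better-covered genes 2-fold higher in cluster 2, 90 had a level per 10000 UMIs at least 10-fold lower in the iPax3 cells than in cluster 2, beside 361 of all 2006 genes of that coverage, and 3 were higher in the iPax3 cells, beside 729 of 2006. The 116 genes were chosen by their level in cluster 2, which is also the level compared here. Their excess over all genes is therefore partly set by that choice and is no independent support. Pecam1 stood at 1.22 in cluster 2 and 0.0123 in the iPax3 cells. Cxcl12 had 0.0175 and Dll4 0 per 10000 UMIs in the iPax3 cells, whereas Hes1 had 2.95, above either adult cluster. Myod1 stood at 0.264 in the iPax3 cells, beside 2.23 and 1.14 in clusters 1 and 2. These are 2 libraries, and differences between them include all differences of tissue, culture and preparation.

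The bulk libraries of Neo and Fet were not used to make the clusters and gave a comparison with replicates. In bulk tissue-derived samples, more cells of a type and more RNA per cell cannot be told apart, and here stage, strain and reporter change together. With edgeR's quasi-likelihood test and Benjamini-Hochberg adjustment over 17571 genes, 240 genes (1.37%) were higher and 176 (1.0%) lower in Neo than in Fet. Of the 134 genes 4-fold higher in cluster 2, 121 were tested, 5 were higher in Neo and 0 lower, with a median log2 difference of 1.66, beside −0.14 over all genes. At an unadjusted p under 0.05 the counts were 30 higher and 3 lower, beside 1189 higher and 2237 lower of all 17571 genes. DESeq2, which called 5.13% of 17317 genes higher and 5.88% lower, called 22 of these members higher and 1 lower. With the replicate number as a block, edgeR called 0.899% of all genes higher and 0.598% lower, and 3 members higher. Leaving out 1 library at a time gave 0 to 3 of these genes higher, the 0 without Fet replicate 2. The share of all genes called higher in the same fits was 0.324% to 0.901%, and 0.324% was again the value without Fet replicate 2. Of the 113 tested genes with a mean of at least 0.5 that were 2-fold higher in cluster 2, 21 were higher in Neo and 0 lower. Neo's higher endothelial genes were known before these members were chosen and give no independent support.

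Fabp4 was the most abundant of these genes in Neo. Its levels, as counts per 1e6 of the TMM-scaled library size (CPM), were 29.4, 56.8 and 71.2 in Fet and 3334, 2392 and 2343 in Neo. The groups lay far apart, with a log2 difference of 5.64 ± 0.48 (SE) and an adjusted p of 1.09e-05 (edgeR). Tm4sf1 had 10.4, 30.4 and 41.5 CPM in Fet and 305, 325 and 388 in Neo. Its libraries did not overlap either (log2 difference 3.56 ± 0.66, edgeR adjusted p = 0.00831). Cdh5 had 29.4, 91.2 and 111 CPM in Fet and 707, 357 and 840 in Neo, all Neo libraries being above all Fet libraries (3.00 ± 0.71, edgeR adjusted p = 0.0352). Aqp1 had 32.9, 31.9 and 38.6 CPM in Fet and 521, 329 and 690 in Neo (edgeR adjusted p = 0.0150). Selp went from 0, 0.518 and 0.856 CPM in Fet to 79.4, 144 and 82.1 in Neo (7.31 ± 1.4, edgeR adjusted p = 0.0128), nearly absent from the fetal libraries. Tinagl1, a matrix glycoprotein gene that was 6.86-fold higher in cluster 2 (0.130 and 0.888), had 0, 5.33 and 6.63 CPM in Fet and 34.8, 72.0 and 92.4 in Neo (edgeR adjusted p = 0.0409). The fifth of the 4-fold genes, Il6, encodes an inflammatory cytokine and is named after its values were seen: 1.73, 3.38 and 1.5 CPM in Fet and 49.0, 85.2 and 64.7 in Neo (edgeR adjusted p = 0.0201).

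Pecam1 itself did not pass the test. It had 32.9, 64.8 and 98.6 CPM in Fet and 813, 813 and 761 in Neo, groups that do not overlap, with a log2 difference of 3.57 ± 1.39 and an adjusted p of 0.178 in edgeR's fit over all 15 libraries. Cldn5 had 32.9, 24.9 and 24.5 CPM in Fet and 190, 257 and 256 in Neo and likewise missed the threshold (edgeR adjusted p = 0.227). In all, 8 of 31 endothelial genes were higher in Neo and 0 lower, beside 1.37% and 1.0% of all genes. Their median log2 difference was 3.09. At an unadjusted p under 0.05, 22 were higher and 0 lower, beside the 1189 and 2237 of all 17571 genes.

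The interferon list had a high median but few calls. Of 43 genes tested, 1 was higher in Neo and 0 lower, beside 1.37% and 1.0% of all genes. Their median log2 difference was 2.94. At an unadjusted p under 0.05, 14 were higher and 1 lower, where 1189 and 2237 of all 17571 genes were. Iigp1 had 15.6, 3.50 and 2.85 CPM in Fet and 49.8, 74.9 and 25.9 in Neo (edgeR adjusted p = 0.210). Isg15 was at 0 in all 3 Fet libraries and at 11, 0.816 and 8.12 CPM in Neo (edgeR adjusted p = 0.105). Of 24 antigen presentation genes, 4 were higher in Neo and 0 lower, beside 1.37% and 1.0% of all genes. At an unadjusted p under 0.05, 12 of the 24 were higher and 0 lower. Among them H2-D1 had 0, 13 and 12.3 CPM in Fet and 302, 248 and 227 in Neo (4.73 ± 0.94, edgeR adjusted p = 0.0141), and Irf1 had 8.65, 11.7 and 16.3 in Fet and 157, 114 and 175 in Neo (edgeR adjusted p = 0.0185). B2m, with 50.1, 55.9 and 65.0 in Fet and 220, 183 and 90.9 in Neo, did not pass (edgeR adjusted p = 0.306). Ifit1 and Tgtp2 were not tested, since they did not pass the filter on low counts.

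Genes higher in cluster 1 were too few in this comparison to set their calls against those of cluster 2. Of the 22 that were 4-fold higher there, 20 were tested, with a median log2 difference of −0.38. At an unadjusted p under 0.05, 2 were higher and 3 lower, beside 1189 and 2237 of all 17571 genes. After adjustment 1.37% of all genes were higher and 1.0% lower, and of the 121 cluster 2 genes 5 and 0. Among the 20 cluster 1 genes, 1 gene was higher in Neo and 0 lower. That gene is Cytip, a regulator of leukocyte adhesion named after its values were seen, with 0, 3.41 and 2.00 CPM in Fet and 81.4, 145 and 15.6 in Neo (5.20 ± 1.32, edgeR adjusted p = 0.0470); in the adult library it rested on 1 UMI in cluster 2. Igfbp5 was high in both groups and nearly equal, with means of 1674 ± 144 CPM in Fet and 1796 ± 352 in Neo (SD, n = 3; edgeR adjusted p = 0.981). Pax7 had 55.3, 43.4 and 32.6 CPM in Fet and 0.495, 4.08 and 5.12 in Neo, without overlap and without passing the test (−3.81 ± 1.23, edgeR adjusted p = 0.112). Myod1 had 84.7, 31.7 and 30.0 CPM in Fet and 15.3, 12.4 and 4.81 in Neo (edgeR adjusted p = 0.439). Of 30 satellite cell genes tested, 2 were higher in Neo and 0 lower after adjustment, beside the same shares of all genes. Their median log2 difference was −0.32, and 6 were higher and 6 lower at an unadjusted p under 0.05.

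**Figure D5:**
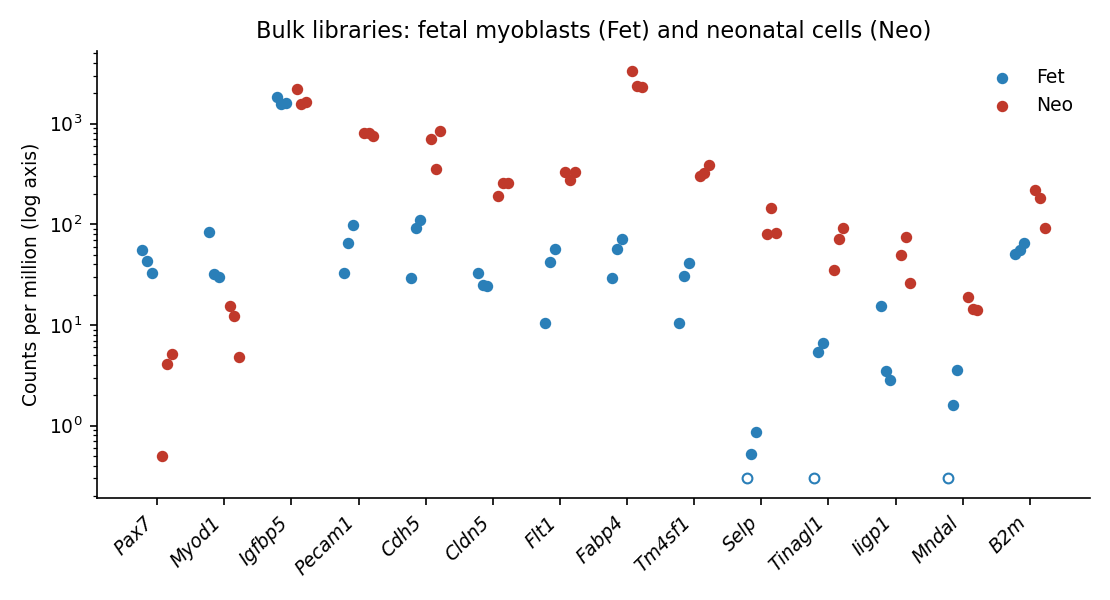
CPM (y axis, log scale) of 14 genes in the 3 Fet libraries (blue) and the 3 Neo libraries (red); open circles mark 0. The Neo libraries lie above the Fet libraries for Fabp4 (2343 to 3334 against 29.4 to 71.2), Tm4sf1, Cdh5 and Pecam1, and below them for Pax7.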

How the data were processed

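The adult library was processed with Cell Ranger 2.2.0, per the submitters' processing notes, with mm10 as the build. The deposited cluster means (a signal per gene) are the cluster's summed UMIs divided by summed size factors, so every value is a whole multiple of 1 step (tolerance 1e-06). Whole UMIs were recovered in this way. The deposited UMI counts of the 575 largest barcodes gave the same gene sums with 0 mismatches, from which the authors' cell assignment was solved. The level of free RNA came from barcodes under 100 UMIs. Ratios carry exact binomial 95% intervals, and levels and shares exact Poisson or binomial ones. A floor of 3 UMIs stood in for 0. For iPax3 cells the 3000 largest barcodes set the limit: a cell needed 10% of their 99th percentile in UMIs, no fewer than 500, and under 10% mitochondrial UMIs. They shared 1 barcode with the adult cells. No doublet was removed; Scrublet marked 7 of 748 barcodes (0.936%), 5 in cluster 1 and 2 in cluster 2. Dispersion was computed for genes of at least 200 UMIs.

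Bulk counts are the authors' deposited featureCounts values (HISAT2 2.0.2 and featureCounts 1.4.6 are named in the submitters' processing notes). All 15 libraries entered 1 edgeR 4.0.16 quasi-likelihood fit (R 4.3.3, robust, TMM scaling, filterByExpr), with Neo minus Fet as contrast and an adjusted p of 0.05 as threshold. TMM scaling put the median gene at −0.139 on the log2 scale, and edgeR with RLE size factors put it at −0.0351. The DESeq2 1.42.0 fit, over 17317 genes, put it at −0.00479. Differences are read relative to the median gene. Nothing in the sources used here says that replicates came from separate animals, so p-values measure the spread between these libraries. Same-numbered Fet and Neo libraries had correlations of −0.00480 to 0.0442 in their deviations, so the numbers were not taken as pairs. On simulated counts for this contrast over 17571 genes the fit recovered 19% of 4-fold and 53% of 16-fold changes, with 1 false call.

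Members and lists were chosen with earlier results of these data known, and the interferon, ribosomal protein and ribosomal pseudogene lists were compiled after seeing the cluster values. Named genes are Pax7, Myod1, Calcr and Pecam1, the 15 largest ratios each way with a mean of at least 0.5 (predicted genes, pseudogenes and sex-linked markers left out), the 10 most abundant genes of each cluster, up to 5 members of each list, and the genes at the threshold. Further members of lists were named after their values were seen. The authors' fold change and p columns were not used. Python 3.11.15 with numpy 2.4.6, scipy 1.17.1 and scanpy 1.11.5 was used. Alternatives covered the minimum mean, the fold, a pseudocount, the scaling, rebuilt clusters, single cells or libraries left out, DESeq2 and a replicate block.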

Additional observations from a re-analysis of the deposited data

How the results depend on the processing

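The count of genes 2-fold higher in cluster 1 was 181 and was 437 at a minimum mean of 0.05, 3 at 0.5, 22 at 4-fold, 57 with 0.05 added to each mean and 61 with k-means clusters rebuilt from barcodes of at least 500 UMIs. For cluster 2 it was 788 and became 1188, 116, 134, 386 and 235. Genes 2-fold above the low-UMI level numbered 118 in cluster 1 and 732 in cluster 2, and 4 and 124 at a minimum mean of 0.5. The rebuilt split did not match the authors': the part most like cluster 2 held 68.2% of 748 barcodes, with median depths of 12160 and 2875 UMIs in the parts, 9.79% from at least 1000 UMIs, 8.69% by Leiden clustering and 8.52% over the cells the authors clustered, of which 42 were in the authors' cluster 2 and 7 in cluster 1. Among 163 named ratios, 106 moved beyond their counting interval with the clusters from 500 UMIs and 49 with those from the authors' cells; Pecam1 was 1.58 and 5.19, and Tinagl1, 6.86 in the authors' clusters, was 1.01 from 500 UMIs. Ratios of any size on the other side of 1 numbered 22 without the highest cell, 23 from the authors' cells and 62 from 500 UMIs. Those of at least 2-fold that turned round were Car3 (0.132 in k-means of the authors' cells, 0.671 without its highest cell) and, in k-means from 500 UMIs, Cdc42ep3 (0.936), Mef2c (0.870) and Rb1 (0.536); Igfbp5 went from 0.463 to 1.10. In Neo against Fet, the count of cluster 1 genes higher, 1, was 2 with 2-fold members, 0 at a mean of 0.5, 2 with DESeq2 and 0 to 1 with 1 library left out; 4 were lower with 2-fold members, where the main count was 0. For cluster 2 the count higher, 5, was 40, 21, 22 and 0 to 3, and the count lower, 0, was 3 with 2-fold members and 1 with DESeq2. With a replicate block these counts were 0 in cluster 1 and 3 in cluster 2. The cause of these differences was not tested. Depth limits cluster 2, where a mean of 0.5 is 25 UMIs. Several alternatives and a few thresholds were chosen after seeing the data.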

Other observations

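The deposited matrix labelled as the second iPax3 single-cell sample also held the adult library. Its barcodes of suffix 1 carried the adult library's UMIs at 0.698 of their number, and the authors' cluster 5 of that matrix held 570 of the 575 adult cells, 505 of cluster 1 and 65 of cluster 2. The clusters of the adult library were therefore not separated there. That matrix was not used as an iPax3 replicate.

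Among ribosomal protein pseudogenes, all 13 with a mean of at least 0.1 were higher in cluster 1, with a median ratio of cluster 2 to cluster 1 of 0.596; Rpl23a-ps3 stood at 13.2 and 8.43 and Rpl6l at 5.95 and 3.08. They summed to 48.5 per 10000 UMIs in cluster 1, 28.5 in cluster 2 and 48.5 in the low-UMI barcodes, and reads of these genes can be shared with the genes they copy. Per cell, the median was 50.7 in cluster 1, 23.2 in the 42 cells of cluster 2 with a high endothelial sum and 31.5 in its other 24 cells.

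Cluster 1 held cells with high sums of other lists. The fibroblast list was over 2 times the low-UMI level in 29 of its 509 cells, the immune list in 18, and the contractile and pericyte lists in 4 each, 53 cells for any of these lists. The genes of at least 200 UMIs most uneven among the cells of cluster 1 were Ccl21a, a chemokine of lymphatic vessels (variance 38.5 times that of Poisson sampling), Cd74, the invariant chain of class II antigen presentation (25.5), Gsn (23.3), and the collagen genes Col1a2 (22.5) and Col1a1 (22.1). The fibroblast matrix gene Dcn stood at 9.16 and 11.3 and Cd74 at 22.4 and 19.5 in clusters 1 and 2.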
